A study of Mus musculus with 16 samples.

Results

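The miR-204 and miR-211 family is a pair of miRNA hairpins, each lying within a gene of the Trpm ion channel family, whose 5p arms carry the same seed. Its 3 members described here are mmu-miR-204-5p, mmu-miR-204-3p and mmu-miR-211-5p. They were chosen by name from the 1881 mature mouse miRNAs on the array and not by their signal, though earlier results of these data were known. Of the 3 members, 2 were detected well enough to be among the 495 miRNAs tested. The fourth arm, mmu-miR-211-3p, is no member but is given beside them, as it comes from the same hairpin as miR-211-5p. The arrays measured miRNAs in total RNA of the wall of the lateral ventricle (LV), which is lined by ciliated ependymal cells. Each array held the RNA of 1 male mouse aged 8 months, and 8 were WT littermates and 8 were Dgcr8+/-. Dgcr8+/- mice lack 1 copy of Dgcr8 in all cells, the strain was backcrossed onto the C57BL/6J background, and no agent was given. The study ran the arrays to search for miRNAs that might link Dgcr8 to the dopamine receptor gene Drd1.

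Dgcr8 is the RNA-binding partner of Drosha in the nuclear complex that cuts primary miRNA transcripts into hairpins. Dicer then cuts the hairpin into a 5p and a 3p arm, and usually 1 of the arms is kept in greater amount. MiR-204 and miR-211 are known for high levels in epithelia of the eye and the brain. These include the retinal pigment epithelium and the choroid plexus, the secretory epithelium that hangs into the ventricles and makes cerebrospinal fluid. Both host genes, Trpm3 and Trpm1, encode cation channels. The choroid plexus attaches near the LV wall, so the family is of interest as a sign of plexus tissue in a dissected wall.

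The mature sequences are shown because the family members differ so little, and because the arms of 1 hairpin do not share a seed. They are from RefSeq (GRCm38.p6), 5′ to 3′, with the seed, bases 2 to 8, in capitals.
mmu-miR-204-5p: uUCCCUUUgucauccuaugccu
mmu-miR-211-5p: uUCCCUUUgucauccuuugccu
mmu-miR-204-3p: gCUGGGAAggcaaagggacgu
mmu-miR-211-3p: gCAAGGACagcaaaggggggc
The 5p arms were identical at 21 of 22 bases, with the single substitution A17U (miR-204-5p first, miR-211-5p second, counted from the 5′ end). The 3p arms shared 14 of 21 bases and had different seeds. Among the 1679 mature miRNAs of the sequence table, the only other miRNA with the seed of the 5p arms was miR-7670-3p, and the only other with the seed of miR-204-3p was miR-7684-5p. Both were on the array and were detected in 0 of 16 mice. No other miRNA of the table had the seed of miR-211-3p. MiR-204-5p lies at chr19:22750610-22750631 and miR-204-3p at chr19:22750649-22750669, both on the plus strand inside Trpm3, which spans chr19:22137797-22995410. MiR-211-5p lies at chr7:64205831-64205852 and miR-211-3p at chr7:64205868-64205888, on the plus strand inside Trpm1, which spans chr7:64153835-64269772. The gene table used gives no exons, so the intron of each host was not checked.

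The members differed in whether the arrays could see them. The software that read the arrays detected miR-204-5p, miR-211-5p and miR-211-3p in all 16 mice, whereas it detected miR-204-3p in 0 of 16. Signals of different probes cannot be set against each other as amounts, so no ratio of arms or of family members is given as a level. Values below are log2 signals after quantile normalization. This forces the signals of all arrays into 1 common distribution, so that each change is relative to the other miRNAs of the array. Every difference is Dgcr8+/- minus WT.

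Arrays of Dgcr8+/- mice were dimmer, with 467 to 492 miRNAs detected against 495 to 540 in WT mice. Without normalization the median log2 difference of the tested miRNAs was -0.39, and after it the median was 0.04, with quartiles of -0.27 and 0.27. Slide 1 held 6 WT and 2 Dgcr8+/- mice and slide 2 held 2 WT and 6 Dgcr8+/- mice, so within-slide values are given. The array of Dgcr8+/- replicate 2 stood apart. Its hybridisation spike-ins, RNAs added to each sample before hybridisation, had a mean log2 signal of 13.1 against 14.3 to 15.4 on the other 15 arrays. The signal ratio of the 2 probes of the spike-in dmr_3 was 0.884 on this array and 0.746 to 0.783 on the others. Results that rest on this array are given with and without it. Dgcr8 mRNA is not measured by a miRNA array, so the genotype could not be checked in these data.

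MiR-204-5p was lower in Dgcr8+/- mice. Its log2 signal spanned 9.01 to 9.48 (median 9.24) in the WT group and 8.55 to 9.25 (median 8.99) in the Dgcr8+/- group. The groups overlapped, as 5 of 8 Dgcr8+/- mice lay below every WT mouse and the other 3 lay within the WT range. The means were 9.25 ± 0.16 (SD, n = 8) and 8.95 ± 0.22 (SD, n = 8), a log2 difference of -0.29 with a standard error of 0.094 and an adjusted p of 0.0136 from limma. This was a signal 1.23-fold higher in WT mice, with a 95% confidence interval of 1.07 to 1.40. MiR-204-5p was thus 1 of the 3 members called lower, and 0 members were called higher. Over all 495 tested miRNAs, 27.9% were called lower and 28.3% higher, and a call in 1 member is to be read beside those shares. The difference was the 116th lowest of the 495.

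The fall of miR-204-5p did not rest on 1 mouse, slide or probe. The difference was -0.34 on slide 1 and -0.29 on slide 2. Its 2 probes gave -0.32 and -0.26. Leaving out each mouse in turn gave -0.33 to -0.23, with adjusted p from 0.0052 to 0.0300 (limma), and the smallest fall was without Dgcr8+/- replicate 2. With no detection filter, so that all 1881 miRNAs entered the adjustment, the adjusted p was 0.0551 (limma). Before normalization between arrays, the signal was 556 to 922 units (median 652) in the WT group and 205 to 588 units (median 440) in the Dgcr8+/- group. On that scale 1 signal unit is the software's background-subtracted spot brightness, and the log2 difference was -0.80. In bulk tissue, fewer cells of a type and less miRNA per cell cannot be told apart.

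**Figure D1:**
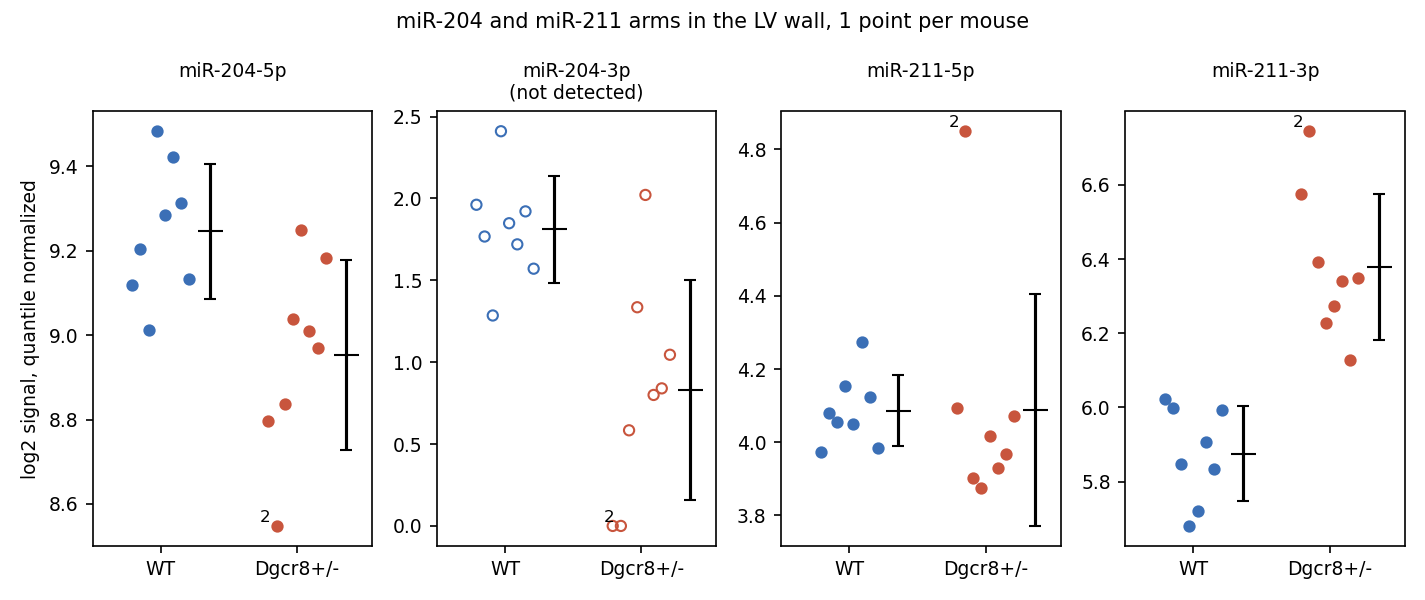
Log2 signal after quantile normalization (y axis, a separate scale for each arm) in each of 8 WT and 8 Dgcr8+/- mice (x axis), with the mean and SD as a black bar beside the points. Open points mark miR-204-3p, which the software detected in no mouse, and the 2 beside a point marks Dgcr8+/- replicate 2, which is the lowest of its group for miR-204-5p and the highest for miR-211-5p and miR-211-3p.

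MiR-204-3p, the other arm of the miR-204 hairpin, was detected by the software in neither genotype. Its signal before normalization was 2.44 to 5.93 units (median 4.06) in the WT group and 1 to 3.60 units (median 1.67) in the Dgcr8+/- group, where 1 was the floor set on all signals. The 7 negative control probes, which match no mouse RNA, had a mean signal of 1.83 to 3.40 units on WT arrays and 1.75 to 4.10 units on Dgcr8+/- arrays. Single negative control probes reached 5.08 units. Of the 2 probes of miR-204-3p, probe 1 lay above the highest negative control probe of its own array in 3 of 8 WT and 0 of 8 Dgcr8+/- mice. Probe 2 lay above it in 7 of 8 WT mice, with 3.35 to 7.94 units over all 8, and in 1 of 8 Dgcr8+/- mice, with 0.534 to 4.63 units. Because the software detected the miRNA on no array, no fold change is given and the arms of miR-204 were not compared between the genotypes.

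MiR-211-5p, which shares its seed and all but 1 base with miR-204-5p, did not pass the test. Its log2 signal was 3.97 to 4.27 (median 4.07) in the WT group and 3.88 to 4.85 (median 3.99) in the Dgcr8+/- group. The groups overlapped, and Dgcr8+/- replicate 2, at 4.85, lay above all other mice, while the other Dgcr8+/- mice lay between 3.88 and 4.09. The log2 difference was 0.0021 (standard error 0.11, 95% confidence interval -0.23 to 0.24, adjusted p = 0.989 from limma). Without Dgcr8+/- replicate 2 it was -0.11 (adjusted p = 0.0634 from limma). MiR-211-5p was dim, at percentile 10.2 of mean signal among the 430 miRNAs detected in all mice, with median signals of 18.6 units in WT and 14.4 units in Dgcr8+/- mice before normalization. On slide 1, which holds Dgcr8+/- replicate 2, the difference was 0.35, and on slide 2 it was -0.13. With no normalization between arrays the difference was -0.36 (adjusted p = 0.0062 from limma), beside the median of -0.39 of all tested miRNAs on that scale. There Dgcr8+/- replicate 2 had 20.2 units, within the 16.2 to 23.1 units of WT mice and above the other Dgcr8+/- mice.

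The 4 probes of miR-211-5p did not give 1 answer. Probe 1, the dimmest, had a log2 difference of 0.41 between the group means, probe 2 of 0.010, probe 3 of 0.061 and probe 4, the brightest, of -0.12. Without Dgcr8+/- replicate 2 these were 0.45, -0.10, -0.058 and -0.24. On probe 2 that mouse had 4.40 against 3.41 to 3.63 in the other Dgcr8+/- mice, on probe 3 it had 5.26 against 4.13 to 4.47, and on probe 4 it had 5.68 against 4.53 to 4.84. On probe 1 it had 2.27, within the 2.06 to 3.10 of the others. The high value of this mouse was therefore seen on 3 of 4 probes.

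**Figure D2:**
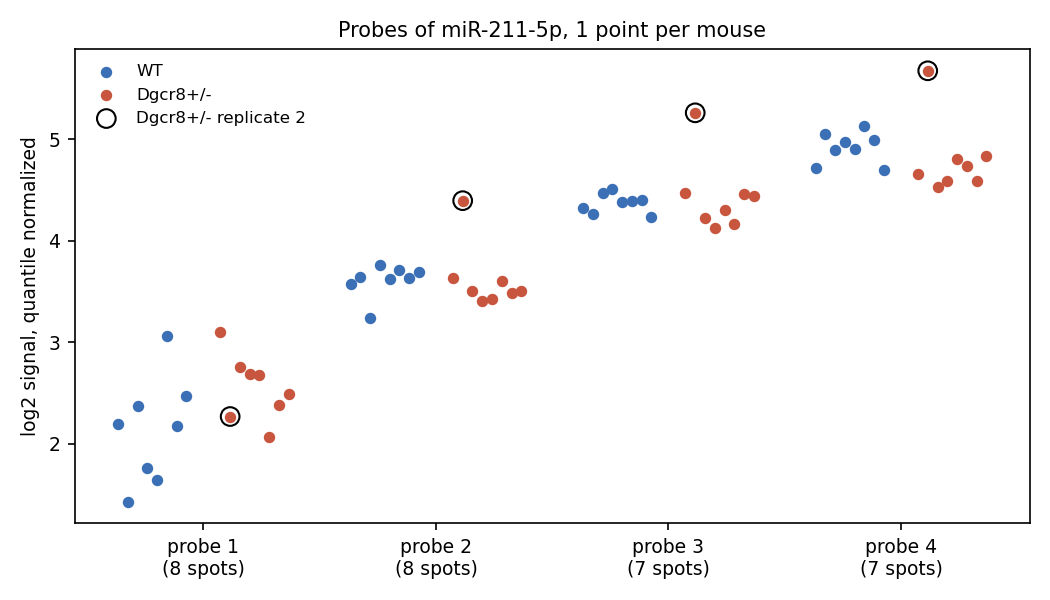
Log2 signal after quantile normalization (y axis) of the 4 probes of miR-211-5p (x axis, with the number of spots of each) in 8 WT and 8 Dgcr8+/- mice, 1 point per mouse. The ringed mouse, Dgcr8+/- replicate 2, lies above all others on probes 2, 3 and 4 and among them on probe 1.

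The other arm of the miR-211 hairpin, miR-211-3p, was higher in Dgcr8+/- mice. Its log2 signal was 5.68 to 6.02 (median 5.88) in the WT group and 6.13 to 6.74 (median 6.34) in the Dgcr8+/- group. No Dgcr8+/- mouse lay as low as any WT mouse. How many of all tested miRNAs separated the groups in this way was not counted, so the separation is not read as particular to this arm. Over all tested miRNAs, 28.3% were called higher. The log2 difference was 0.50 (standard error 0.081, adjusted p = 7.56e-05 from limma), a signal 1.42-fold higher with a 95% confidence interval of 1.26 to 1.60. It was 0.65 on slide 1, 0.42 on slide 2 and 0.45 without Dgcr8+/- replicate 2. This rise is relative to the other miRNAs of the array. Before normalization the groups overlapped, with 56.4 to 77.2 units (median 67.4) in WT and 67.9 to 75.9 units (median 71.2) in Dgcr8+/- mice. On that scale the log2 difference was 0.13 (adjusted p = 0.222 from limma). With the arrays scaled to the labelling spike-ins it was 0.14 (adjusted p = 0.407 from limma).

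The difference between family members on the same array can be compared between genotypes without setting 1 probe's level against another's. The log2 signal of miR-204-5p minus that of miR-211-5p was lower in Dgcr8+/- mice by a mean of -0.29 (2-sided exact permutation test of 8 against 8 mice, p = 0.0536, adjusted over 2 such differences 0.0536), which missed the threshold of 0.05. Dgcr8+/- replicate 2 had 3.70 for this quantity and the other Dgcr8+/- mice 4.70 to 5.23, and without it the difference was -0.13 (exact permutation test, p = 0.100). Within the miR-211 hairpin, the log2 signal of the 5p arm minus that of the 3p arm was lower in Dgcr8+/- mice by a mean of -0.50 (2-sided exact permutation test, p = 0.000777, adjusted p = 0.00155). Without replicate 2 it was -0.56 (exact permutation test, p = 0.000311). This comparison of arms was added after the data were seen, because miR-204-3p was not detected, so its p-values are descriptions. A scaling of whole arrays cancels in it, but a background added to the spots does not. With a normexp background correction it was -0.26. Its size also depends on the probes. Those of miR-211-5p differed between genotypes by -0.12 to 0.41, and the 2 of miR-211-3p by 0.48 and 0.52.

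**Figure D3:**
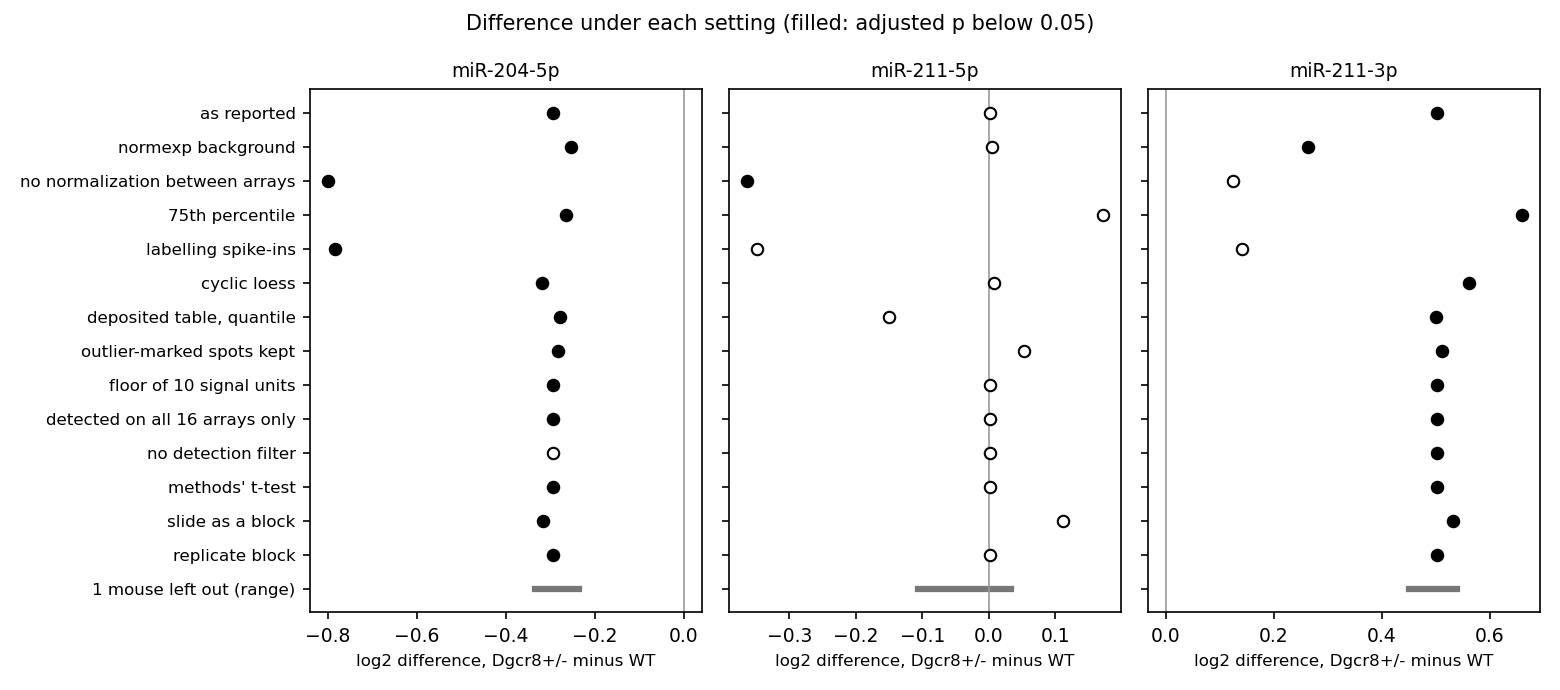
Log2 difference, Dgcr8+/- minus WT (x axis), of miR-204-5p, miR-211-5p and miR-211-3p under each processing setting (y axis), filled where the adjusted p was below 0.05, and the range with 1 mouse left out at a time as a grey bar. MiR-204-5p lies below 0 and miR-211-3p above 0 in every row, whereas miR-211-5p lies on both sides.

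No mouse lay far from its group in miR-204-5p. The highest WT mouse, replicate 4, had 1.39 times the signal of the lowest, replicate 3, and the highest Dgcr8+/- mouse, replicate 5, had 1.62 times that of the lowest, replicate 2. Among the 430 miRNAs detected in all mice, the SD of miR-204-5p lay at the 74.0th percentile in WT mice and the 62.6th percentile in Dgcr8+/- mice. For miR-211-5p it lay at the 42.3rd percentile in WT mice and at the 88.4th percentile in Dgcr8+/- mice, whose SD of 0.32 includes replicate 2.

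Whether the 5p arms varied together from mouse to mouse was asked within each genotype. In WT mice miR-204-5p and miR-211-5p had Pearson's r = 0.764 (exact permutation p = 0.0257) and Spearman's rho = 0.786 (exact permutation p = 0.0279), with an adjusted p of 0.103 over the 8 relations computed. Without the 2 WT mice farthest from the median of miR-204-5p, r was 0.937 (adjusted exact permutation p = 0.0556). In Dgcr8+/- mice r was -0.685 (exact permutation p = 0.0782, adjusted p = 0.125) and rho was -0.357 (exact permutation p = 0.389). This negative value rested on replicate 2, which had the lowest miR-204-5p and the highest miR-211-5p: without this mouse r was 0.132 over 7 mice (exact permutation p = 0.764). Centred within slide, r was 0.764 in WT and -0.797 in Dgcr8+/- mice (adjusted exact permutation p = 0.0646 for both). Without normalization r was 0.905 in WT mice (adjusted exact permutation p = 0.0151), and in Dgcr8+/- mice -0.447 with replicate 2 and 0.737 without it, where the brightness of the whole array is shared by both miRNAs.

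**Figure D4:**
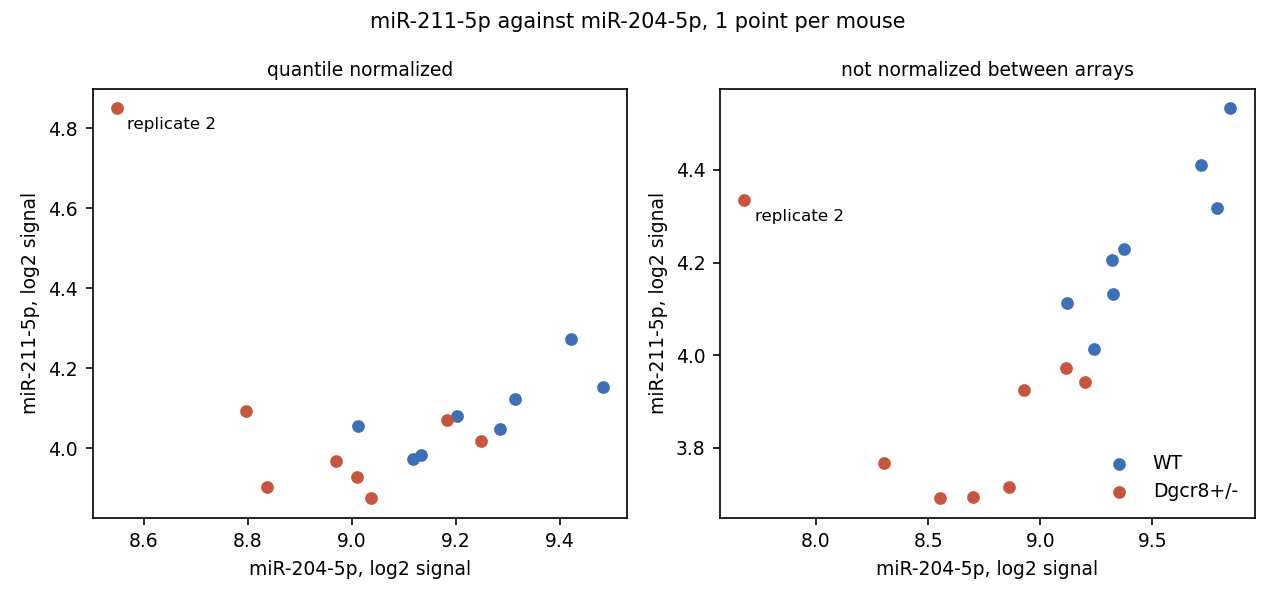
Log2 signal of miR-211-5p (y axis) against that of miR-204-5p (x axis), 1 point per mouse, after quantile normalization on the left and without normalization between arrays on the right. Dgcr8+/- replicate 2 lies far from the other 15 mice in both panels, with the lowest miR-204-5p.

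The arms of miR-211 did not vary together in WT mice, with r = -0.360 (exact permutation p = 0.387, adjusted p = 0.443) and rho = -0.476 (exact permutation p = 0.243). In Dgcr8+/- mice r was 0.808 (exact permutation p = 0.0167, adjusted p = 0.103) and rho 0.619 (exact permutation p = 0.115). Without replicate 2 r was 0.500, and without the 2 mice farthest from the median of miR-211-5p it was 0.415 (exact permutation p = 0.428), so the relation rested on such mice. None of these relations passed the threshold after adjustment.

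The miRNAs whose signal followed miR-204-5p most closely from mouse to mouse were themselves lower in Dgcr8+/- mice. Over the 16 arrays, centred within genotype, the highest correlations among the 429 other miRNAs detected in all mice were with miR-382-5p (r = 0.937), miR-380-3p (0.896), miR-185-5p (0.893), miR-382-3p (0.884) and miR-433-5p (0.881). Without Dgcr8+/- replicate 2 they were 0.903, 0.856, 0.831, 0.822 and 0.810. Mir380, Mir382 and Mir433 lie on chromosome 12, away from Mir204 on chromosome 19. Between the genotypes, miR-382-5p differed by -0.55 on the log2 scale, miR-380-3p by -0.49, miR-185-5p by -0.47, miR-382-3p by -0.63 and miR-433-5p by -0.42, all with an adjusted p below 0.05 from limma. Over all tested miRNAs, 27.9% were called lower. These miRNAs were picked by their correlation on these same arrays, and miR-382-5p and miR-382-3p are arms of the same hairpin. All 16 values of a miRNA share their arrays with those of miR-204-5p, so these are descriptions.

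For miR-211-5p the closest miRNAs were miR-6366 (r = 0.926), miR-6988-5p (0.919), miR-98-5p (0.916), miR-744-5p (0.907) and miR-1904 (0.906). These rested on Dgcr8+/- replicate 2. Without it r was 0.608 for miR-6988-5p, 0.0056 for miR-98-5p, 0.247 for miR-744-5p and 0.426 for miR-1904, and miR-6366 had 1 value on all other 15 arrays because quantile normalization gave the brightest miRNA the same value there. MiR-98-5p, a let-7 family member, had a log2 signal of 9.84 in that mouse, 8.18 to 8.31 in the other Dgcr8+/- mice and 8.39 to 8.59 in WT mice. Its relative let-7a-5p, named after its values were seen, shares 20 of 22 bases with it (substitutions G11A and A19U, let-7a-5p first) and had 13.4 in that mouse against 13.5 in the others. In both pairs the dimmer partner was high on that array, miR-211-5p beside miR-204-5p and miR-98-5p beside let-7a-5p. The second pair was picked through that same array and after its values were seen, so this likeness is no separate result. Another let-7 member dimmer than let-7a-5p, let-7i-5p, was low there, with 11.38 against 11.90 to 12.03 in the other Dgcr8+/- mice. Whether the probes of these pairs bind only their own miRNA was not tested.

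Other miRNAs tied to the choroid plexus and its neighbours were read beside the family. Htr2c, the serotonin 2C receptor gene, is highly expressed in choroid plexus epithelium and also in neurons, and hosts several miRNAs. Of 10 such miRNAs on the array, 4 were detected in no mouse and 3 were tested. All 3 were lower, beside 27.9% of all tested miRNAs, with a median log2 difference of -0.59 beside 0.04 for all. The 3 are not independent, as they share a host gene, and miR-1298-5p and miR-1298-3p are arms of the same hairpin. The list was chosen with earlier results of these data known. MiR-1298-3p, the brightest, had log2 signals of 4.34 to 4.96 (median 4.61) in the WT group and 3.44 to 4.66 (median 4.14) in the Dgcr8+/- group. Its groups overlapped, and its log2 difference was -0.54 (adjusted p = 0.0044 from limma). MiR-1298-5p differed by -0.64 (adjusted p = 0.0070 from limma) and miR-764-5p by -0.59 (adjusted p = 0.0015 from limma). MiR-1298-5p was detected in 8 WT but only 5 Dgcr8+/- mice, and miR-764-5p in 8 and 7, so both met the detection filter through the WT group. All 3 stayed past the threshold without Dgcr8+/- replicate 2, where 30.3% of all tested miRNAs were lower, and with the slide as a block, where 29.1% were. MiR-764-3p and miR-1264-5p were detected in 6 WT mice each and miR-448-3p in 3, and none of them in any Dgcr8+/- mouse. These miRNAs are dim, the arrays of Dgcr8+/- mice were dimmer as a whole, and the part of that in their detection was not tested.

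Epithelial miRNAs were rarely detected. Of 7 on the array, among them the miR-200 family, miR-141-3p and miR-205-5p, 5 were detected in no mouse, and miR-200a-3p was detected in 1 WT mouse. MiR-203-3p, an epidermal miRNA, was the only one tested and had a log2 difference of -0.13 (adjusted p = 0.416 from limma).

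MiRNAs of multiciliated cells, which both the ependyma and the choroid plexus carry, went the other way from miR-204-5p in value but did not pass the test. The miR-34b/c and miR-449 miRNAs are known for their role in the formation of motile cilia. Of 7 on the array, 5 were detected in every mouse and 0 of 5 were called, with a median log2 difference of 0.29. MiR-34b-5p, the brightest, had log2 signals of 8.25 to 9.54 (median 9.06) in the WT group and 8.92 to 9.81 (median 9.29) in the Dgcr8+/- group, and differed by 0.28 (adjusted p = 0.123 from limma). The differences were 0.29 for miR-34b-3p, 0.35 for miR-34c-5p (adjusted p = 0.0594 from limma), 0.31 for miR-34c-3p and 0.15 for miR-449a-5p. Without Dgcr8+/- replicate 2, miR-449a-5p passed with 0.25 (adjusted p = 0.0037 from limma), beside 34.3% of all tested miRNAs called higher, and with the slide as a block, miR-34c-5p passed with 0.43 (adjusted p = 0.0454 from limma), beside 30.5% called higher. Without normalization 0 of the 5 passed and all 5 values lay below 0.

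Over mice, miR-204-5p and miR-1298-3p had r = 0.598 in WT mice (exact permutation p = 0.119, rho = 0.667, exact permutation p = 0.0831) and r = 0.652 in Dgcr8+/- mice (exact permutation p = 0.0775, rho = 0.524, exact permutation p = 0.197). The adjusted p were 0.158 and 0.125. Without the 2 mice farthest from the median of miR-204-5p, r was 0.144 in WT and 0.656 in Dgcr8+/- mice, and without Dgcr8+/- replicate 2 it was 0.318. Without normalization r was 0.814 in WT mice (adjusted exact permutation p = 0.0622) and 0.841 in Dgcr8+/- mice (adjusted exact permutation p = 0.0437), or 0.600 also without replicate 2. MiR-204-5p and miR-34b-5p had r = -0.718 in WT mice (exact permutation p = 0.0394, rho = -0.762, exact permutation p = 0.0368, adjusted p = 0.105) and r = -0.114 in Dgcr8+/- mice (exact permutation p = 0.792, rho = -0.167, exact permutation p = 0.703). Without the 2 farthest mice they were -0.570 and -0.541. Without normalization the WT value was -0.017, so the negative relation in WT mice was not seen on that scale. Both relations were added after the data were seen, with the brightest tested miRNA of each list.

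For other cell types of the wall, the counts are to be read beside the 27.9% of all tested miRNAs called lower and the 28.3% called higher. Of the tested miRNAs of blood vessels and meninges 0 of 5 were lower and 2 were higher, with a median log2 difference of 0.16. For red blood cells 1 of 3 was lower and 0 higher (median -0.15), for microglia and immune cells 1 of 5 was lower and 1 higher (median -0.14), for neurons 1 of 6 was lower and 1 higher (median 0.05), and for oligodendrocytes 0 of 3 were lower and 1 higher (median 0.13). Without Dgcr8+/- replicate 2 the vascular list had 1 lower and 1 higher, the neuronal list 1 lower and 2 higher, and the other 3 had the counts just given. With the slide as a block the vascular list had 1 lower and 2 higher, the microglial and immune list 0 lower and 0 higher, and the other 3 had the counts first given. The red blood cell miRNA called lower, miR-486a-5p, was detected in 8 WT but only 3 Dgcr8+/- mice. The vascular miRNA called lower in these settings, miR-199a-3p, was detected in 8 WT and 2 Dgcr8+/- mice. Both therefore met the detection filter through the WT group, where they were higher. Without normalization between arrays 0 tested miRNAs of these 5 lists were higher, and 3 of 5, 3 of 3, 5 of 5, 6 of 6 and 1 of 3 were lower, in the order above, where 293 of all 495 (59.2%) were lower. The signals of a list were also summed in each mouse without normalization, which follows the brightest probes and is no amount. The sum of the 4 arms of the family was 637 to 1027 units in WT and 299 to 682 units in Dgcr8+/- mice, that of the Htr2c-hosted miRNAs 70.9 to 109 and 26.8 to 62.6 units, and that of the multiciliated list 658 to 1519 and 688 to 1289 units. In the same order of genotypes, the sums were 22.9 to 40.6 and 12.3 to 25.2 units for the epithelial list, 1590 to 2624 and 963 to 1842 for the vascular list, and 568 to 1084 and 264 to 696 for red blood cells. They were 367 to 589 and 238 to 422 units for microglia and immune cells, 37629 to 57068 and 26052 to 42650 for neurons, and 7562 to 16831 and 5723 to 10701 for oligodendrocytes. Of these 9 sums, the ranges of the genotypes did not overlap for the Htr2c-hosted list and overlapped for the other 8. How many of all miRNAs had ranges that did not overlap on this scale was not counted. On it 59.2% of all tested miRNAs were lower, with a median log2 difference of -0.39, so this is no result about that list. The part of these cell types in the fall of miR-204-5p was not tested.

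**Figure D5:**
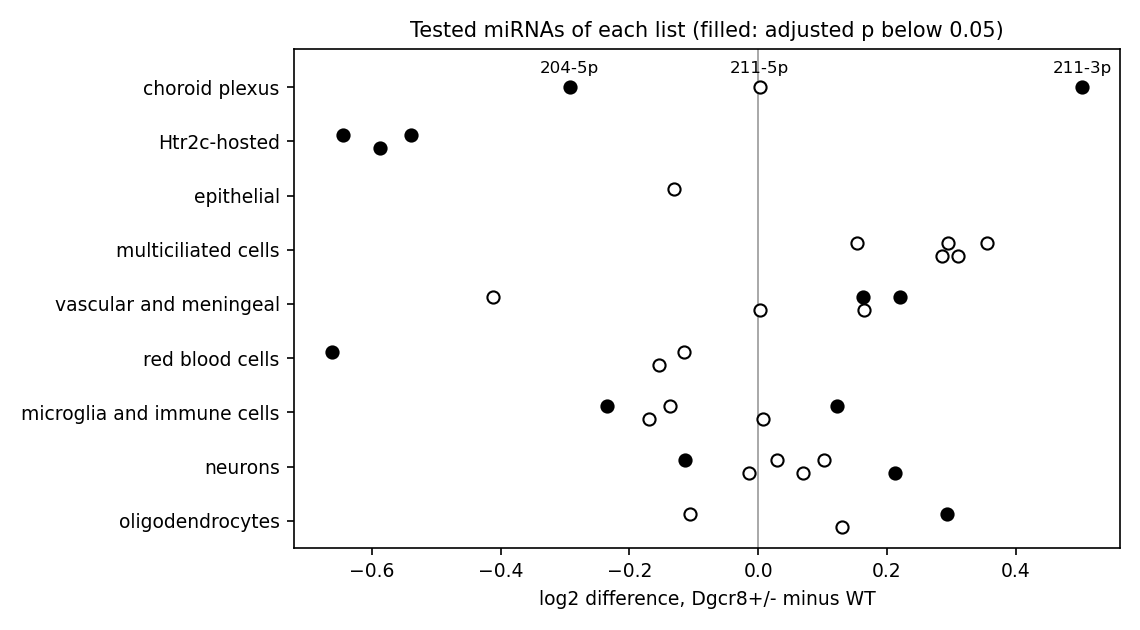
Log2 difference, Dgcr8+/- minus WT (x axis), of every tested miRNA of each list (y axis), filled where the adjusted p from limma was below 0.05, with small vertical shifts to keep points apart. The 3 arms of the family lie on both sides of 0, the 3 Htr2c-hosted miRNAs lie between -0.64 and -0.54, and the 5 miRNAs of multiciliated cells lie between 0.15 and 0.35 without passing.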

How the data were processed

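LV walls of 8 WT and 8 Dgcr8+/- mice were profiled on 1-colour Agilent miRNA arrays, and groups were taken from the sample labels. The authors deposited each array's scanner output, with a spot intensity made by Agilent Feature Extraction (10.5.1.1 per the labels' processing notes, 10.7.3.1 per the file headers) after background subtraction but not normalized across arrays. The value table deposited with them holds intensity values equal to the total gene signal of those files. 0 per-sample columns were left out as belonging to no sample.

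From the spot intensity, outlier-marked spots were dropped, spots of a probe averaged, the 4415 probes quantile-normalized between arrays, probes of a miRNA averaged, values under 1 unit set to 1 and log2 taken. Detection on 8 or more of 16 arrays was required for testing, which left 495. Genotypes were compared with limma 3.58.1 in R 4.3.3 (Benjamini-Hochberg over the 495). Differences between members and relations over mice were tested with exact permutation tests. On simulated data with the same 495 miRNAs, 192 of 200 changed miRNAs were recovered and 9 of 295 unchanged ones called. These counts hold only for the changes put into the simulation. They are not read as a recovery rate for differences of the sizes reported here. The number of arrays limits the precision. Each replicate was a separate mouse, per the labels.

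The members and the lists of cell type miRNAs were chosen with earlier results of these data known. Named beside the members were the 5 miRNAs most correlated with each tested 5p arm, those that share a seed, and every tested miRNA of the Htr2c-hosted, epithelial and multiciliated lists; other lists were given by counts. Alternatives covered background correction, normalization, marked spots, the floor, the detection filter, the test, the slide, the replicate number and leaving out each mouse. The planned comparisons of miR-204-3p were not run, as the software detected it on 0 of 16 arrays.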

Additional observations from a re-analysis of the deposited data

Results flagged for a closer look

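Some values lay far from the other mice of their group by Dixon's test at its 95% critical value for 8 samples, 0.526. Chance gives about 1 in 20 such groups, which is 1 of the 20 groups searched, and 5 were found. The 5 are not independent, so no conclusion is drawn from that excess. All but the one of WT replicate 6 are of Dgcr8+/- replicate 2. The outlying difference of miR-204-5p minus miR-211-5p also contains the outlying value of miR-211-5p. The log2 signal of miR-211-5p in Dgcr8+/- replicate 2 was 4.85, against 3.88 to 4.09 in the other Dgcr8+/- mice. The log2 signal of miR-204-5p minus that of miR-211-5p was 3.70 in the same mouse, against 4.70 to 5.23 in the others. On its array the hybridisation spike-ins had a mean log2 signal of 13.1, against 14.3 to 14.5 on the other Dgcr8+/- arrays, and the probe ratio of the spike-in dmr_3 was 0.884, against 0.754 to 0.779. The hybridisation spike-ins of WT replicate 6 were at 15.4, against 14.3 to 14.7 on the other WT arrays. The part of these arrays in the values of the family was not tested beyond leaving each one out.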

How the results depend on the processing

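MiR-204-5p kept its direction under 29 of 29 alternatives and its call under 28. With no detection filter its log2 difference was -0.29 with an adjusted p of 0.0551 from limma, where more miRNAs enter the adjustment. It was -0.80 without normalization and -0.25 with a normexp correction. Leaving out 1 mouse gave -0.33 to -0.23. The difference of miR-211-5p, 0.0021, turned to -0.36 without normalization, to -0.35 (adjusted p = 0.0554 from limma) with the labelling spike-ins and to -0.15 (adjusted p = 0.410 from limma) with the deposited table. Leaving out 1 mouse gave -0.11 to 0.033, with a negative value without WT replicate 1 (-0.014), 3 (-0.0023), 5 (-0.0033) or 8 (-0.013) or without Dgcr8+/- replicate 2 (-0.11).

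The difference of miR-204-5p minus miR-211-5p passed the threshold with a normexp correction (-0.26), with no, 75th percentile or spike-in scaling (-0.44, the same in all), with cyclic loess (-0.33) and with marked spots kept (-0.34). It was -0.13 with the deposited table (adjusted exact permutation p = 0.851) and -0.43 within slides (exact permutation p = 0.0587). Leaving out 1 mouse gave -0.35 to -0.13, with adjusted exact permutation p from 0.0131 to 0.132, and it passed without WT replicate 3 (-0.32) or Dgcr8+/- replicate 4 (-0.34), 5 (-0.35), 6 (-0.33) or 8 (-0.33). The difference between the arms of miR-211 kept its call under all 26 alternatives, but was -0.26 with a normexp correction, which also gave 0.26 for miR-211-3p. MiR-211-3p lost its call with no normalization (0.13) and with the spike-ins (0.14).

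Of the relations over mice, that of miR-204-5p with miR-211-5p in WT mice passed without normalization (r = 0.905), as did that of miR-204-5p with miR-1298-3p in Dgcr8+/- mice (r = 0.841). In Dgcr8+/- mice r of miR-204-5p with miR-211-5p turned to 0.0074 without the 2 farthest mice, 0.132 without replicate 2 and 0.737 without both replicate 2 and normalization. Without normalization, r of the miR-211 arms in WT mice turned to 0.344, and r of miR-204-5p with miR-34b-5p in Dgcr8+/- mice to 0.608, or 0.381 also without replicate 2.

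The tested miRNAs called lower, 138, and higher, 140, became 293 and 0 without normalization and 261 and 0 with the spike-ins. In these settings limma gave 0 higher also before adjustment (p below 0.05), while the methods' t-test gave 2 and 0. With the 75th percentile, which moved the median of all to 0.14, they were 126 and 210. Leaving out 1 mouse gave 133 to 150 lower and 126 to 170 higher. The cause of these changes was not tested.

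Same-numbered mice share only a number: their deviations correlated by -0.14 to 0.50, and 3 of 8 WT mice correlated best with their own number. With the replicate block the difference of miR-204-5p was -0.29 and that of miR-211-5p 0.0021. Pairing by number gave -0.29 for miR-204-5p minus miR-211-5p (exact sign-flip permutation p = 0.0078). This is the smallest p that 8 pairs can give. As the design gives no pairs, it is not read as a pass, and the unpaired exact permutation test gave p = 0.0536. Dim signals limit miR-211-5p and miR-204-3p.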
